A study of Bos taurus with 11 samples.

Results

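The genes described here are 10 that mark T cells and natural killer (NK) cells: CD2, CD3D, CD3E, CD3G, CD4, CD8A, CD247, GZMA, GZMB and PRF1. They were read by every non-control array probe whose gene name in the scanner files was one of these symbols, which gave 26 of 43653 probes and 10 of the 25325 entries in the gene name column. The probes were read in endometrium, the lining of the uterus, biopsied from cows on day 7 of the oestrous cycle and hybridised to Agilent 1-colour oligonucleotide arrays, with 1 array a cow. The subfertile group held 5 cows in which 3 embryo transfers or inseminations in a row had failed, with no fault found in the genital tract and with normal cycles. The 6 fertile cows had become pregnant within 3 attempts, and did so again at the first transfer after the biopsy. All biopsies were whole tissue from the same cycle day, no treatment was labelled, and breed and age were not used here. The comparison asks which endometrial transcripts differ between subfertile and fertile cows.

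T cells recognise antigen through the T cell receptor, which signals through the CD3 chains and the zeta chain, while CD4 or CD8 binds the presenting MHC molecule. Cytotoxic T cells and NK cells kill by releasing perforin, which opens the membrane of the target cell, and granzymes, proteases that enter through it. In ruminants lymphocytes lie both within the uterine epithelium and in the stroma beneath it, and in sheep many of those in the epithelium are gamma-delta T cells.

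Signals are given as log2 of the processed signal relative to the 75th percentile of the array, so that 0 is the level of that percentile. Differences are subfertile minus fertile on the log2 scale. A probe was tested where the scanner software marked it well above background on at least 5 of the 11 arrays, and 20 of the 26 probes passed this filter. It passed 31877 probes of the whole array. Probes of a gene are numbered from the 5′ end of the transcript to the 3′ end, and every position below is on the build HGSC Btau_3.1, per the file headers; exon and UTR annotations were not used here. Levels were not compared between probes.

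The tested probes of CD2, CD3D, CD3E, CD8A, CD247, GZMA and GZMB did not pass the test, and the calls on CD3G, CD4 and PRF1 fell on some of their probes only. In all 4 of the 20 tested probes passed limma at a Benjamini-Hochberg adjusted p below 0.05, 2 higher and 2 lower in subfertile cows. That is 20.0% of them, against 22.2% of all tested probes, or 14.8% called higher and 7.38% called lower, so the share of these probes was near that of the array. Both lower calls, CD4 probe 2 and CD3G probe 1, passed the filter through the fertile arrays, being well above background in 0 and 1 of 5 subfertile cows. Among the 13 probes well above background on all 11 arrays 2 were called, both higher, where the same filter gave 17.1% higher and 8.18% lower over the whole array. Without adjustment 8 of the 20 had a p below the same threshold, as did 11678 of all 31877 tested probes. The median difference of the 20 probes was -0.14, beside 0.07 for all tested probes. The values of the groups did not overlap for 2 of the 20 probes, both of CD4 and 1 in each direction, beside 13.5% of all tested probes, 9.65% higher and 3.9% lower. In these bulk samples fewer cells of a type and less RNA per cell cannot be told apart.

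The arrays of subfertile cows were dimmer. The median processed signal lay between 54.3 and 92.7 on the 5 subfertile arrays, against 161 to 452 on the 6 fertile arrays, and 64.5% to 74.2% of spots were well above background on subfertile arrays, against 72.0% to 77.4% on fertile arrays. None of the 6 known slides and none of the 4 known scan days held arrays of both groups, and those of fertile cow 6 are not known. All 5 subfertile arrays were scanned on 1 day, so spread between days cannot be seen in that group. Batch and group can therefore not be told apart, and slide or scan day could enter only as random blocks, called the slide fit and the day fit below. Fertile cow 6 was a block of its own in both, and a call that remains in them is not free of batch. The slide fit called 2 of the 20 probes (11.5% of all tested probes) and the day fit 1 (3.06%). With normexp, another background correction, the median difference of all tested probes was 0.33, and 53.6% passed. Normexp here adds 50 to each signal before the log. The 75th percentile of the processed signal was 519 to 837 on subfertile arrays and 1549 to 4359 on fertile arrays. The added 50 is thus a larger part of the percentile on subfertile arrays, which raises dim probes there. Such a rise is no evidence on the direction of a dim probe. The epithelial markers EPCAM, KRT8, KRT18 and KRT19 and the stromal markers COL1A1, COL3A1, VIM and DCN were well above background on all 11 arrays.

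**Figure D1:**
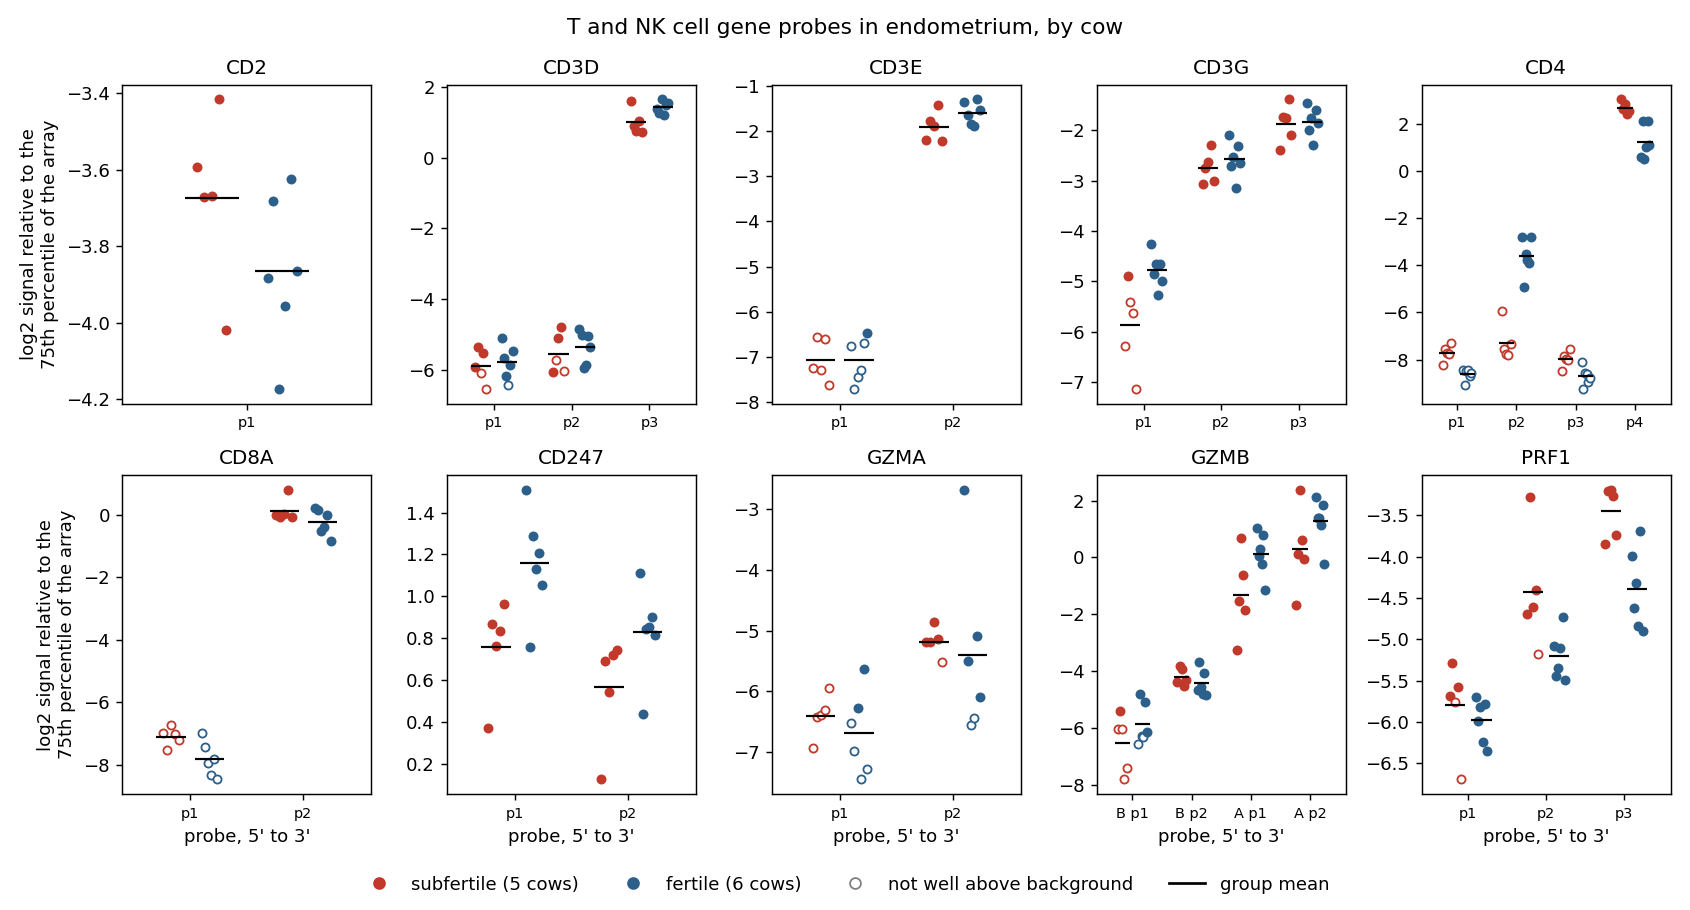
Log2 signal of each of the 26 probes relative to the 75th percentile of the array, 1 point a cow, with subfertile cows left of fertile cows and probes in 5′ to 3′ order within each gene (GZMB has loci A and B). Bars are group means and open points were not well above background. CD4 probe 2 is open in all 5 subfertile cows and filled in all 6 fertile cows, whereas CD4 probe 4 is filled in all cows and higher in every subfertile cow.

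The probes of CD4, the co-receptor of helper T cells, are shown first because they went in opposite directions. All 4 lie on the minus strand of chromosome 5, at chr5:10623647-10623706, chr5:10621424-10621483, chr5:10619062-10621443 and chr5:10615420-10615479, in the order of their numbers. Probe 3 is 60 bases long but spans 2382 genomic bases, so that it crosses at least 1 intron. The capitals mark the 20 bases that probes 2 and 3 share. Of probe 4 only the last 30 bases are printed.
CD4 probe 1: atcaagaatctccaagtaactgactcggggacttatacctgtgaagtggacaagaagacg
CD4 probe 2: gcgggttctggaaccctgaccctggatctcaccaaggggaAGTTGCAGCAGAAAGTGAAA
CD4 probe 3: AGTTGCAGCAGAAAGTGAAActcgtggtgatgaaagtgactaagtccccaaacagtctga
CD4 probe 4, last 30 bases: gaaaaatacaacagacttaactttaaaaaa

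CD4 probe 2 was lower and CD4 probe 4 higher in subfertile cows, while probes 1 and 3 were not well above background on any of the 11 arrays. Probe 2 (A_73_115863) had log2 signals of -5.94, -7.56, -7.75, -7.79 and -7.36 in subfertile cows 1 to 5, against a lowest value of -4.94, a median of -3.64 and a highest value of -2.80 in fertile cows. All 5 subfertile cows lay below all fertile cows, and the groups did not overlap. The probe stood well above background in 0 of 5 subfertile and 6 of 6 fertile cows, so its level in subfertile cows was not measured. In the processed signal, the fertile mean was 4.34-fold above the lowest signal that other probes measured well above background on the subfertile arrays. Where CD4 probe 2 itself read higher than that signal, its own value was used. This is not a strict bound, because a probe above the lowest such signal can still miss the flag. In subfertile cow 1 CD4 probe 2 missed it at -5.94, while CD3D probe 2 had it at -6.06. The limma test did not use this limit but the difference of -3.66, with the subfertile values as they stood (limma, adjusted p = 4.44e-04). Its raw spots had mean signals of 40.2 to 56.0 over local backgrounds of 25 to 29 on subfertile arrays, against 145 to 394 over 25 to 34 on fertile arrays. Raw signals are not scaled for the dimmer subfertile arrays, so this split adds no support. Those of CD3G probe 3, which was not called, also split, at 141 to 264 against 456 to 1186. The call on CD4 probe 2 remained in the slide fit (adjusted p = 0.00214) and in the day fit (adjusted p = 0.0145). With normexp background correction the difference was -0.08 (adjusted p = 0.817), and the 4.34-fold was set from the processed signal only.

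CD4 probe 4 (A_73_104193) had log2 signals of 3.03, 2.63, 2.82, 2.42 and 2.53 in subfertile cows 1 to 5, against a lowest value of 0.51, a median of 1.04 and a highest value of 2.12 in fertile cows. All subfertile cows lay above all fertile cows, and all 11 arrays were well above background. The probe was higher in subfertile cows by 1.45 ± 0.31 (SE), which is 2.73-fold (limma, adjusted p = 0.00772). Within the fertile group, cows that shared a slide and a scan day lay close together, and slide and day cannot be told apart here. Fertile cows 2 and 5, of 1 slide and day, were at 2.11 and 2.12, and the other 4 fertile cows lay between 0.51 and 1.08. Cows 2 and 5 exceeded fertile cows 1 and 3, of another slide and day, by a mean of 1.57, more than the difference between the groups. The same contrast was -1.26 at CD4 probe 2 and 0.002 at PRF1 probe 3. The adjusted p was 0.0115 in the slide fit and 0.0591 in the day fit, where the call was lost. With normexp correction the difference was 1.33 (adjusted p = 0.00272).

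The sequence that CD4 probes 2 and 3 share did not go with a shared signal. Probe 3 holds the last 20 bases of probe 2 at its own 5′ end and was not well above background in any of the 6 fertile cows in which probe 2 was measured. CD4 can be given no direction from these arrays. None of the 4 CD4 probes shares a run of 16 bases with a probe of another gene on the array.

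CD3D, CD3E and CD3G encode the delta, epsilon and gamma chains of the CD3 complex, and of their 7 tested probes 1 passed the test, a dim CD3G probe that was lower in subfertile cows. CD3E probe 2 had log2 signals of -2.20, -1.77, -1.89, -1.42 and -2.21 in subfertile cows 1 to 5, against a lowest value of -1.88, a median of -1.58 and a highest value of -1.29 in fertile cows. The groups overlapped, although subfertile cows 1 and 5 were the lowest of all 11. The difference was -0.31 ± 0.17 (adjusted p = 0.201), with a 95% interval from -0.68 to 0.055. CD3E probe 1 was not tested, being well above background in 0 of 5 subfertile and 1 of 6 fertile cows.

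CD3G was read by 3 probes, of which probe 1 passed and probes 2 and 3 did not. CD3G probe 2 had log2 signals of -3.06, -2.75, -2.63, -2.28 and -3.01 in subfertile cows 1 to 5, against a lowest value of -3.14, a median of -2.58 and a highest value of -2.10 in fertile cows. CD3G probe 3 had -2.38, -1.74, -1.75, -1.39 and -2.10 in subfertile cows 1 to 5, against a lowest value of -2.29, a median of -1.81 and a highest value of -1.46 in fertile cows. The groups overlapped almost wholly at both probes, with differences of -0.17 (95% interval -0.60 to 0.25) and -0.05 (95% interval -0.47 to 0.37).

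CD3G probe 1 is printed because it was the called probe of the CD3 chains. It lies on the plus strand at chr15:27461669-27461728, and no part of it is in capitals.
CD3G probe 1: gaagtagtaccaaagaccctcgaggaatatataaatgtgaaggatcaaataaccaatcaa
Its log2 signals were -6.29, -4.90, -5.41, -5.63 and -7.14 in subfertile cows 1 to 5, against a lowest value of -5.28, a median of -4.76 and a highest value of -4.26 in fertile cows. Subfertile cow 2 lay within the fertile range and the other 4 below it. The probe fell by 1.09 ± 0.35 on the log2 scale (limma, adjusted p = 0.0422), but it stood well above background in 1 of 5 subfertile cows, against 6 of 6 fertile cows. The call was lost in the slide fit (adjusted p = 0.141), in the day fit (adjusted p = 0.300) and on leaving out any of 8 of the 11 cows, where the adjusted p was 0.0517 to 0.0875. With normexp correction the direction turned, with a difference of 0.81 (adjusted p = 8.48e-04).

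CD3D was read by 3 probes, none of which passed. Probes 1 and 2 were at -0.11 ± 0.26 (95% interval -0.68 to 0.47) and -0.20 ± 0.28 (95% interval -0.82 to 0.42). Both were dim, well above background on 3 of 5 subfertile arrays each, against 5 and 6 of 6 fertile arrays, and both turned with normexp correction, to 1.17 and 0.999. Probe 3 had log2 signals of 1.61, 0.90, 0.74, 1.04 and 0.74 in subfertile cows 1 to 5, against a lowest value of 1.22, a median of 1.43 and a highest value of 1.65 in fertile cows. Subfertile cow 1 lay within the fertile range, and the other 4 lay below every fertile cow. The difference was -0.42 ± 0.16 (adjusted p = 0.0827), and without subfertile cow 1 it was -0.57 (adjusted p = 0.0109). It also passed with median centring, at -0.51 (adjusted p = 0.0397), and with array weights, at -0.47 (adjusted p = 0.0327).

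CD3D probe 3, on the minus strand at chr15:27451220-27451279, is printed because it shares sequence with other probes of the array. It shares runs of at least 16 bases with probes named MGC127492 and UNCX, which together cover 33 of its 60 bases. In the last 30 bases, capitals mark the shared runs.
CD3D probe 3, last 30 bases: ACAGTGacttcccTGGCAGTCCAGTGGTTA
Among the 26 probes, 23 share no such run with a probe of another gene, the others being a GZMB probe with 17 shared bases and another with 21. The signal of CD3D probe 3 cannot be assigned to CD3D alone.

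Most CD3 probes that were bright enough moved together from cow to cow. After the mean of each group was taken out, CD3G probes 2 and 3 differed from each other by a root mean square of 0.09 over the 11 cows, where each varied by 0.31 and 0.30. CD3E probe 2 followed both, with differences of 0.16 and 0.15 beside its own variation of 0.26. All 3 were highest among subfertile cows in cow 4 and lay below the group mean in subfertile cows 1 and 5 and in fertile cows 2 and 4. CD3D probe 3 did not follow them, being at 0.60 above its group mean in subfertile cow 1, where the other 3 probes were 0.30 to 0.51 below theirs.

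**Figure D2:**
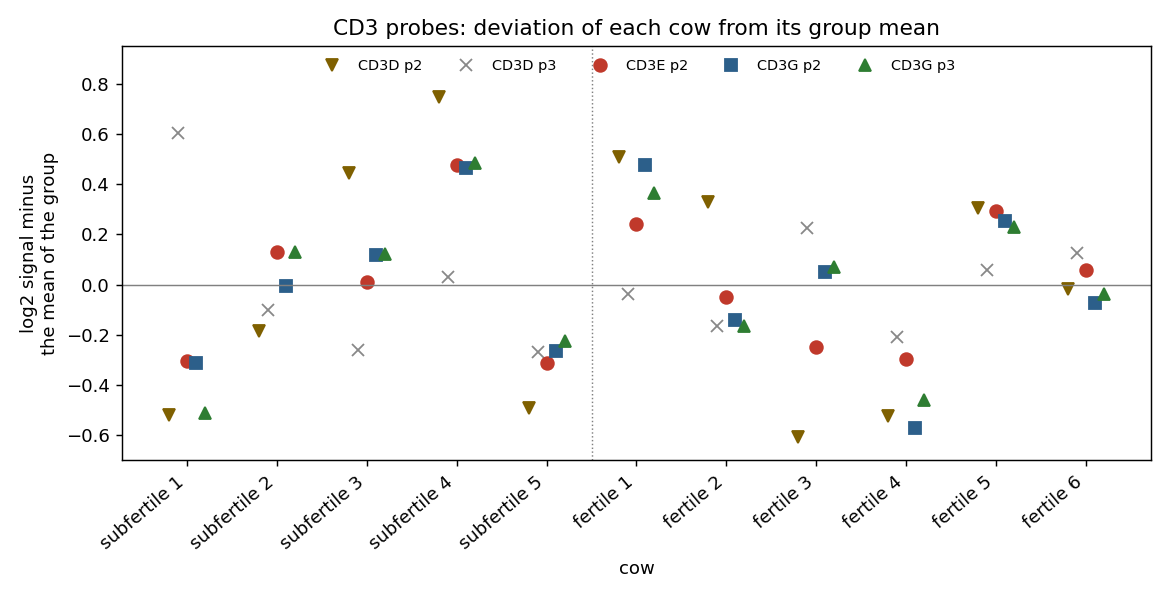
Deviation of each cow from its group mean (log2) at 5 CD3 probes that were measured on at least 9 arrays, with subfertile cows left of the dotted line and fertile cows right of it. CD3E probe 2 and CD3G probes 2 and 3 lie close together in most cows, with fertile cow 3 the widest exception, while CD3D probe 3 (crosses) goes its own way, most of all in subfertile cow 1.

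Over the 190 pairs of tested probes of the 10 genes, 5 pairs differed by less than 75% of the smaller variation of the pair. They were the 3 pairs among CD3E probe 2 and CD3G probes 2 and 3, the pair of CD247 probes and the pair of GZMB probes at locus A. Each pair was hybridised on the same arrays and shares their brightness. Among 11903 named genes outside the list, those most like the mean of the brightest CD3D, CD3E and CD3G probes were ATP6V0A2, STAT2, YOD1, SAR1B and SLC25A26, at root mean squares of 0.10 each, beside 0.19 for the pattern itself. That pattern contains CD3D probe 3. With CD3E and CD3G alone, a choice made after seeing the data, the closest were CLSTN1, TMEM140, CST7, FLT3 and TTC3, at 0.15 to 0.16 beside 0.27, and 0 of the 5 genes were shared with the other ranking.

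CD247 encodes the zeta chain, which carries the receptor signal in T cells and serves activating receptors in NK cells. Its 2 probes lie on the plus strand at chr3:1828954-1829013 and chr3:1828993-1829052 and overlap in 21 bases, so they are not independent readings. The shared bases are shown because they tie the probes together, all in capitals.
CD247 probes 1 and 2, shared bases: TGCTCGGTCTTAATTTATACT
CD247 probe 1 had log2 signals of 0.37, 0.87, 0.76, 0.84 and 0.96 in subfertile cows 1 to 5, against a lowest value of 0.76, a median of 1.17 and a highest value of 1.51 in fertile cows. Fertile cow 2 lay within the subfertile range, and the other 5 fertile cows lay above every subfertile cow. The difference was -0.40 ± 0.15 (adjusted p = 0.0733, 95% interval -0.72 to -0.08) at probe 1 and -0.26 ± 0.15 (adjusted p = 0.217) at probe 2. Probe 1 passed at -0.48 without fertile cow 2 (adjusted p = 0.0329), at -0.49 with median centring (adjusted p = 0.0421) and at -0.45 with normexp correction (adjusted p = 0.0183).

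CD2, an adhesion receptor of T and NK cells, had 1 probe. It read -3.59, -3.67, -3.67, -3.42 and -4.02 in subfertile cows 1 to 5, against a lowest value of -4.17, a median of -3.88 and a highest value of -3.62 in fertile cows. The ranges overlapped, and the difference was 0.19 ± 0.13 (adjusted p = 0.322, 95% interval -0.10 to 0.48). With normexp correction it was 0.69 (limma, adjusted p = 2.18e-05). The processed signals of CD2 on subfertile arrays were 31.7 to 69.3, of the order of the 50 that normexp adds.

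CD8A encodes the alpha chain of the co-receptor of cytotoxic T cells, which some NK cells also carry. Its probe 1 was well above background on no array. Probe 2 read -0.01, -0.06, 0.01, 0.81 and -0.08 in subfertile cows 1 to 5, against a lowest value of -0.83, a median of -0.19 and a highest value of 0.21 in fertile cows. Subfertile cow 4 stood alone at the top, and the other 4 lay within the fertile range. The difference was 0.36 ± 0.22 (adjusted p = 0.269, 95% interval -0.13 to 0.85).

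Perforin, encoded by PRF1, was the only cytotoxic gene of the 10 with a called probe. Its probes 1, 2 and 3 lie on the minus strand of chromosome 28, and their differences were 0.18, 0.77 and 0.94. Probe 3, at chr28:26034478-26034537, is printed because it alone passed, with no part in capitals.
PRF1 probe 3: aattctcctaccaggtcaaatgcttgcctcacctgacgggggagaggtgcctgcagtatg
It had log2 signals of -3.85, -3.21, -3.19, -3.27 and -3.73 in subfertile cows 1 to 5, against a lowest value of -4.90, a median of -4.47 and a highest value of -3.69 in fertile cows. Fertile cow 5 reached the subfertile range, and the other 5 fertile cows lay below it. All 11 arrays were well above background. PRF1 probe 3 was higher by 0.94 ± 0.23, or 1.92-fold (limma, adjusted p = 0.0158), and remained called on leaving out any cow. The call was lost in the slide fit (adjusted p = 0.0553) and in the day fit (adjusted p = 0.136).

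The other PRF1 probes gave less. PRF1 probe 2 read -4.69, -3.27, -4.61, -4.41 and -5.17 in subfertile cows 1 to 5, against a lowest value of -5.49, a median of -5.23 and a highest value of -4.73 in fertile cows. Subfertile cow 2 was the highest, and all subfertile cows but cow 5 lay above every fertile cow. The difference was 0.77 ± 0.28 (adjusted p = 0.0730), and without subfertile cow 5 it was 0.96 (adjusted p = 0.0381). PRF1 probe 1 was at 0.18 ± 0.23 (adjusted p = 0.598), well above background on 3 of 5 subfertile and 6 of 6 fertile arrays. With normexp correction all 3 probes were higher, by 1.21 to 1.31, where 46.8% of all tested probes were called higher. Their processed signals on subfertile arrays were 4.96 to 71.5, of the order of the 50 that normexp adds. Their rise with normexp therefore adds no support.

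GZMB, granzyme B, is the name of probes at 2 places on chromosome 21. Locus A is on the plus strand, with probes at chr21:34820734-34820793 and chr21:34820861-34820920. Locus B is on the minus strand, with probes at chr21:34983354-34983413 and chr21:34983314-34983373. The first probes of the loci can be aligned over 35 bases, of which 27 are identical (77.1%), and that stretch is shown because it tells the loci apart. Capitals mark identical bases.
GZMB locus A probe 1, aligned stretch: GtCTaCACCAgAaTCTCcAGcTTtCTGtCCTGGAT
GZMB locus B probe 1, aligned stretch: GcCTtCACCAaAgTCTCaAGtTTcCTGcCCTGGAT

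GZMB at locus A varied more between cows than it differed between groups. Locus A probe 1 read -3.25, -1.54, 0.69, -0.61 and -1.85 in subfertile cows 1 to 5, against a lowest value of -1.14, a median of 0.18 and a highest value of 1.04 in fertile cows. The subfertile cows spanned 3.94 on the log2 scale and the fertile cows 2.18. Subfertile cow 1 was the lowest of all cows, and subfertile cow 3 lay among the highest fertile cows. The difference was -1.44 ± 0.61 (adjusted p = 0.109, 95% interval -2.77 to -0.11), and without subfertile cow 3 it was -1.94 (adjusted p = 0.0268).

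Locus A probe 2 likewise had subfertile cow 1 as its lowest. It read -1.68, 0.13, 2.38, 0.61 and -0.06 in subfertile cows 1 to 5, against a lowest value of -0.25, a median of 1.38 and a highest value of 2.13 in fertile cows. The groups overlapped, with subfertile cow 3 the highest of all 11. The difference was -0.99 ± 0.62 (adjusted p = 0.267, 95% interval -2.34 to 0.35). Both locus A probes followed each other closely, with a root mean square difference of 0.18 beside variations of 1.03 and 1.04, although probe 2 shares 21 bases with a probe named LOC100125946.

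At locus B, GZMB probe 2 was at 0.23 ± 0.22 (adjusted p = 0.483) and probe 1 was not tested, being well above background on 1 of 5 subfertile and 3 of 6 fertile arrays. Probe 2 read -4.41, -3.82, -3.95, -4.53 and -4.32 in subfertile cows 1 to 5, against a lowest value of -4.84, a median of -4.62 and a highest value of -3.69 in fertile cows. Fertile cows 2 and 5, of 1 slide and scan day, were again the highest of their group, 0.75 above fertile cows 1 and 3 on another slide and day. Subfertile cows spanned 0.71 at this probe.

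GZMA, granzyme A, had 1 tested probe of 2. GZMA probe 2 read -5.19, -5.19, -4.86, -5.14 and -5.52 in subfertile cows 1 to 5, against -2.68, -5.51, -6.56, -6.43, -5.10 and -6.09 in fertile cows 1 to 6. Fertile cow 1 stood far above all others, fertile cows 2 and 5 lay within the subfertile range, and fertile cows 3, 4 and 6 lay below it. The difference was 0.21 ± 0.58 (adjusted p = 0.820), and over the 11 sets that leave out 1 cow it ranged from -0.02 to 0.76. GZMA probe 1 was well above background on 0 of 5 subfertile and 2 of 6 fertile arrays.

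**Figure D3:**
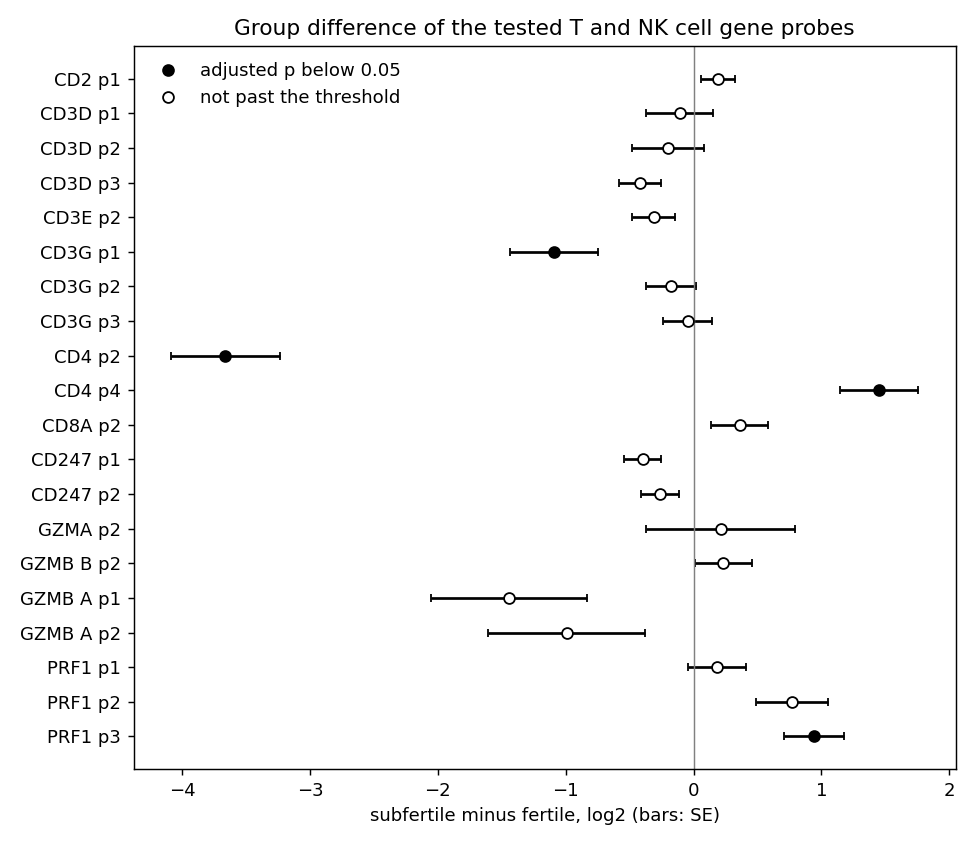
Subfertile minus fertile difference (log2) of the 20 tested probes, with bars for the standard error (5 subfertile and 6 fertile cows). Filled points passed limma at an adjusted p below 0.05. They are CD3G probe 1 and CD4 probe 2 on the left of 0 and CD4 probe 4 and PRF1 probe 3 on the right.

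The background correction moved the dim probes most. With normexp 12 of the 20 probes passed, 10 higher and 2 lower, but so did 53.6% of all tested probes, 46.8% higher and 6.78% lower. Both lower calls, CD3D probe 3 at -0.50 and CD247 probe 1 at -0.45, are of probes that were well above background on all arrays. The differences of CD4 probe 4, CD8A probe 2, CD247 probes 1 and 2 and CD3D probe 3 moved by less than their standard errors, as the plot of both corrections shows. Those of CD4 probe 2, CD3G probe 1, CD3D probes 1 and 2 and CD2 were among those that moved by more. For dim probes, the part of the arrays' brightness in the result was not tested.

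**Figure D4:**
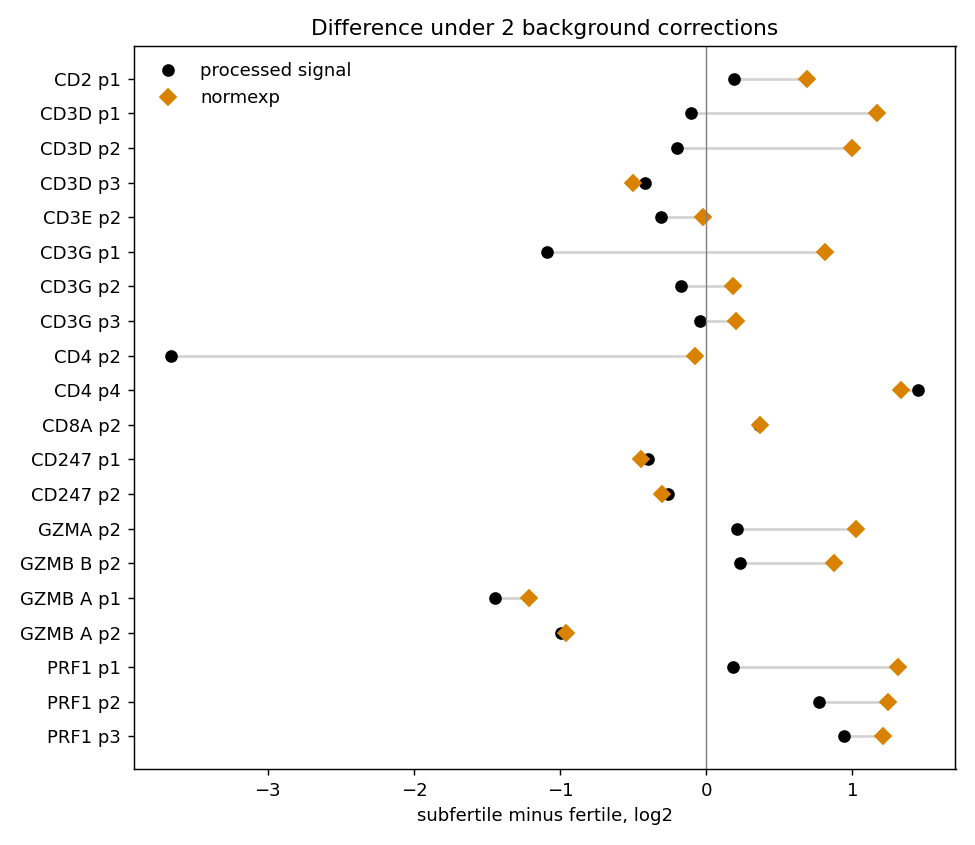
Subfertile minus fertile difference (log2) of the 20 tested probes from the processed signal (black circles) and after normexp background correction (orange diamonds). CD4 probe 2 runs from -3.66 to -0.08 and CD3G probe 1 from -1.09 to 0.81, while CD4 probe 4, CD8A probe 2 and both CD247 probes stay in place.

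Few other genes of T cell receptor signalling passed the test. Of 19 tested genes 1 was higher and 1 lower, with a median of -0.14, but with normexp correction 8 were higher and 0 lower, with a median of 0.28. Over all 18478 genes taken with 1 probe each, 14.2% were called higher and 7.89% lower. PTPRCAP, which binds the phosphatase CD45, averaged 1.09 ± 0.16 (SD, n = 5) in subfertile cows and 0.33 ± 0.15 (SD, n = 6) in fertile cows, higher by 0.75 (limma, adjusted p = 0.00144). SH2D2A, an adaptor of activated T cells, fell by 0.64 (adjusted p = 0.00169), but was at 0.52 with normexp correction.

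Lineage factors and checkpoint receptors of T cells moved both ways, with 2 of 13 tested genes higher, 4 lower and a median of -0.09. TOX, a regulator of T cell development and exhaustion, averaged -0.67 ± 0.12 (SD, n = 5) in subfertile cows and 0.26 ± 0.24 (SD, n = 6) in fertile cows, and fell by 0.93 (limma, adjusted p = 0.00115). TBX21, the T-bet factor of type 1 and cytotoxic lymphocytes, was higher by 1.13 (adjusted p = 0.00531). Both calls remained in the slide fit and in the day fit. The other calls were GATA3 at 0.66 and TCF7, PDCD1 and HAVCR2 at -0.36 to -0.72, and of these GATA3 did not pass under quantile normalization or median centring, where 1 gene was called higher. In the day fit 1 gene of the list was higher and 1 lower, TBX21 and TOX, so these other calls were all lost. In the slide fit 1 was higher and 2 lower, and GATA3 was lost. With normexp correction 6 of the 13 were higher and 3 lower.

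Of 21 tested cytotoxic granule and NK cell genes 0 were higher and 2 lower, with a median of 0.07. NCAM1, known as CD56 on human NK cells, fell by 1.02 ± 0.23 (limma, adjusted p = 0.0110), and FASLG, the death ligand of cytotoxic cells, fell by 0.76 ± 0.15 (adjusted p = 0.00564). Neither call remained in the day fit. With normexp correction FASLG turned to 0.75 and NCAM1 was at -0.36 (adjusted p = 0.171), and 11 of the 21 genes were higher and 0 lower. The list median was -0.02 with both quantile normalization and median centring. Of 8 cytokine and receptor genes IL10, an inhibitory cytokine, was higher by 0.97 ± 0.19 (adjusted p = 0.00555) and IL18, which primes NK cells, fell by 0.82 ± 0.11 (adjusted p = 7.61e-04), with a list median of 0.26; in the day fit IL10 missed the threshold (adjusted p = 0.0512), and with normexp correction 7 of the 8 were higher and 1 lower.

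PTPRC, which encodes CD45 and is carried by all leukocytes, had probes that disagreed. The probe with the highest mean averaged -1.01 ± 0.39 (SD, n = 5) in subfertile cows and -0.06 ± 0.34 (SD, n = 6) in fertile cows, a fall of 0.95 ± 0.21 (limma, adjusted p = 0.00894) that was lost in the day fit (adjusted p = 0.0995). The other probe was at -0.04 ± 0.21 (adjusted p = 0.908). Of 14 tested pan-leukocyte genes PTPRC alone passed, and the median was -0.10. With quantile normalization or median centring 2 were lower, and with normexp correction 3 were higher and 2 lower. EVI2B was at -0.81 (adjusted p = 0.0626).

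Markers of other cells moved beside these genes, and their part in the results was not tested. The signal of each list below is summed over its tested genes, as a multiple of the array's 75th percentile. A gene left out as an outlier spot on an array is missing from the sum of that array, which is then too low. Epithelial markers summed to 104 to 143 in subfertile cows, against 53.2 to 108 in fertile cows, with 6 of 11 genes higher, among them CLDN3 by 1.08 and ELF3 by 0.54. With quantile normalization or median centring 1 of the 11 was called. B and plasma cell markers summed to 31.4 to 66.2 in subfertile cows, against 11.1 to 40.3 in fertile cows. The brightest of them was XBP1, at a mean log2 signal of 4.92 in subfertile cows and 4.69 ± 0.30 (SD) in fertile cows. The fertile sum of 11.1 is too low to include XBP1, so these ranges cannot be compared. Of the 9 genes 2 were higher, the receptor chain CD79A by 1.43 and FCER2 by 0.51. With normexp correction 6 of the 9 were higher.

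Macrophage and dendritic cell markers summed to 9.43 to 27.3 in subfertile cows, against 7.16 to 25.4 in fertile cows, with 1 of 13 called, VSIG4 at -0.999, and FCGR1A at -0.56 not past the threshold. The VSIG4 call was lost in the slide fit (adjusted p = 0.169) and with normexp correction, at -0.51 (adjusted p = 0.0964), while 2 of the 13 were lower with quantile normalization and 3 with median centring. Neutrophil markers summed to 8.91 to 165 in subfertile cows, against 8.79 to 141 in fertile cows, with ELANE higher by 1.47 and CATHL2 lower. CATHL2 was well above background in 1 of 5 subfertile cows, and its difference was -3.55, or -0.74 with normexp correction. Stromal markers summed to 339 to 511 in subfertile cows, against 305 to 412 in fertile cows, with 2 of 11 higher and 2 lower, FBN1 at -0.98 and FN1 at -0.80. With quantile normalization 0 stromal markers were higher and 4 lower, and with median centring 0 and 3. Endothelial markers summed to 7.80 to 18.7 in subfertile cows, against 6.14 to 10.8 in fertile cows, with TIE1 higher by 0.90 and PLVAP by 0.79. In the day fit the calls on these lists of other cell types were CLDN3 (adjusted p = 0.0400), CD79A (adjusted p = 0.0358) and CATHL2 (adjusted p = 0.00805), and those on ELANE, VSIG4, the stromal and the endothelial markers were lost. A sum over tested genes is above 0 by construction, so the sums do not show that a cell type was present.

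**Figure D5:**
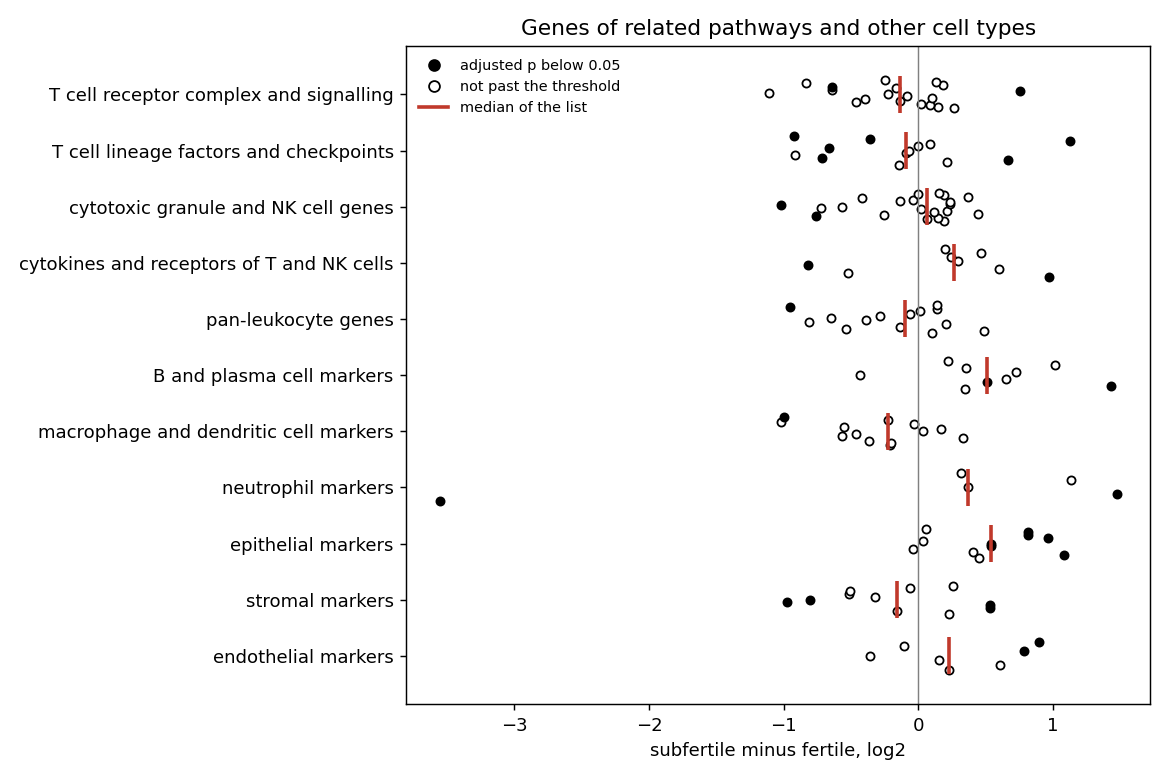
Subfertile minus fertile difference (log2) of each tested gene of 11 lists, 1 probe a gene, with the list median as a red bar and called genes filled. The lists of T and NK cell genes centre near 0, between -0.14 and 0.26, whereas epithelial markers centre at 0.54 and B and plasma cell markers at 0.51. With normexp correction, not drawn, the T and NK cell lists centre at 0.28 to 0.78 and epithelial markers at 0.47.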

How the data were processed

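Total RNA of 11 biopsies was labelled with Cy3 after addition of spike-in RNA, per the labels' protocols. Per the submitters' processing notes, intensity was extracted by the authors with Agilent Feature Extraction 10.5.1.1. The deposited scanner files hold a processed intensity, a mean intensity, a local background and detection flags for 45220 spots an array. A table of log2 values that the authors deposited served as an alternative. Relative to fertile cow 2, and with array medians removed, its probes matched the scanner values to within 0.01 for 100% of probes, except in fertile cow 1 (23.6%). Its scaling stays unknown. The deposited file of fertile cow 6 has gene names out of register with its probes, so names were joined by probe. The number of columns left unmapped was 0.

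Control spots and outlier spots were left out, the 75th percentile of the array was subtracted from each log2 processed signal, and repeated spots were averaged. The 31877 probes well above background on at least 5 of 11 arrays entered 1 model with group as its only term (limma 3.58.1, R 4.3.3), and p-values were adjusted over them by Benjamini-Hochberg. The cows were separate animals. The genes and lists were chosen with earlier results of these data known. The genes named beyond the 10 were, by rule, PTPRC, the 2 of each list with the smallest p, with the brightest tested probe of a gene, and the 5 nearest to the CD3 pattern; others are named where a count needed it. On simulated data for this comparison, over 31877 probes, the fit found 62% of 100 probes made to change 2-fold and 95% of 100 made to change 4-fold, and 7 of its 164 calls were false. The simulated noise was independent between arrays and held no slide or day effect. These rates therefore do not carry over to the real arrays, where batch and group cannot be told apart. Alternatives were normexp (offset 50), quantile normalization, median centring, the authors' table, other filters, outlier spots kept, slide, scan day and replicate blocks, array weights, a trended robust variance and leaving out each cow. The number of arrays limits the precision.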

Additional observations from a re-analysis of the deposited data

Results flagged for a closer look

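Of 40 groups of values examined, the 2 groups of cows at each of 20 tested probes, 2 held a cow far from the rest of its group by Dixon's criterion, where chance marks about 1 in 20 groups. At CD4 probe 2, subfertile cow 1 was at -5.94, the other subfertile cows being between -7.79 and -7.36. The probe was not well above background in any of these 5 cows. At CD8A probe 2, subfertile cow 4 was at 0.81, the other subfertile cows being between -0.08 and 0.01. The same cow was the highest of the subfertile group at CD2, at CD3E probe 2 and at CD3G probes 2 and 3. What set these cows apart was not tested.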

How the results depend on the processing

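The 4 calls among the 20 tested probes of the 10 genes became 12 with normexp and 6 with median centring. They became 6 of 26 without a filter on dim probes and 2 of 13 with a filter on all arrays (both higher). The slide fit gave 2, the day fit 1, and leaving out each cow 3 to 5. Over all probes 7067 calls of 31877 became 17082 with normexp and 6599 with median centring. They became 12179 of 43653 without the filter and 6864 of 27131 with the filter on all arrays. The slide fit gave 3672 and the day fit 977. On leaving out each cow there were 4527 to 7298, the lowest without subfertile cow 2. Of all calls 66.7% were higher, against 50.8% with quantile normalization and 48.5% with median centring. With replicate number as a block 4762 probes passed, 2 of them of these genes (both CD4), with adjusted p = 0.0834 for PRF1 probe 3 and 0.0907 for CD3G probe 1. The number names cows and pairs none: correlations of same-numbered cows' deviations were -0.21, 0.17, 0.22, -0.04 and -0.17, and 1 of 5 subfertile cows correlated best with its own number.

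The direction turned with normexp for CD3D probes 1 and 2 (1.17 and 0.999) and CD3G probes 1, 2 and 3 (0.81, 0.18 and 0.20). Normexp adds 50 to each signal, which raises dim probes on the dimmer subfertile arrays, so these turns are no evidence on direction. On leaving out each cow the direction turned for CD3D probe 1 (-0.24 to 0.058), CD3G probe 3 (-0.17 to 0.083) and GZMA probe 2 (-0.020 to 0.76), none of them called. The cause was not tested. With array weights CD3G probe 1 missed the threshold by a narrow margin. CD4 probes 1 and 3, not well above background on any array, passed at 0.92 and 0.72 without the filter. In subfertile cows dim probes are limited by signal over background.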
